A study of Mus musculus with 66 samples.

Results

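Rectal mucosa taken on day 3 of dextran sulfate sodium (DSS) exposure was compared with uninjured rectal mucosa, using all rectal samples of those days. They were 4 samples of day 0 (mice 1 to 4) and 3 of day 3 (mice 5 to 7), 7 of the 66 bulk RNA samples in the series. All were wildtype C57Bl/6 mice bought at 6 weeks of age. The day 0 mice had received no DSS. The schedule was 3% DSS over 6 days counted from day 0, so that the day 3 mice were sampled during the exposure and before it ended. Each sample came from a separate mouse, and the same mice also gave a mid-colonic and an anal section. The labels say that muscle was dissected away, and epithelium, lamina propria and vessels stay together in each sample. Smooth muscle markers were still present, with a summed level of 1082 to 1297 TPM at day 0 and 990 to 1409 TPM at day 3.

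DSS is a sulfated polysaccharide that damages the lining of the large bowel of mice that drink it, and the open injury and heavy inflammation of the model follow after several days. The rectal lining renews from crypts: stem cells at the crypt base divide under Wnt signals, their daughters divide a few more times, and the cells then leave the cycle and become absorptive colonocytes, mucus-secreting goblet cells, hormone-secreting enteroendocrine cells or tuft cells. BMP signals, which oppose Wnt, act toward the crypt top.

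Expression was given as transcripts per 1000000 (TPM), a length-adjusted share of each library's RNA, summed over the transcripts of a gene. Read depth is unknown, because the table holds no counts. The number of genes at 1 TPM or more was 12130 to 12328 at day 0 and 11660 to 12063 at day 3, and mitochondrial genes took 16.33 to 20.01% and 18.08 to 21.31% of TPM. Defining markers of the labelled tissue were abundant in all 7 samples, with Car1 at 3352 TPM or more and Muc2 at 510 TPM or more. The correlation of log2(TPM + 1) was 0.979 to 0.986 over the 6 pairs of day 0 mice, 0.976 to 0.985 over the 3 pairs of day 3 mice and 0.967 to 0.973 over the 12 pairs across days.

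Most of the rectal response at day 3 was loss. Of 12348 genes tested (at least 1 TPM in 3 of the 7 samples), 6.62% passed an adjusted p of 0.05 in limma on log2(TPM + 1), with 1.5% of the tested genes higher and 5.13% lower, and 20.4% had an unadjusted p under 0.05. The 2-fold calls were more one-sided, with 38 genes higher and 225 lower, and at 4-fold there were 6 and 29. The share of calls that were higher was 22.6% on the TPM scale and 36.2% after scaling by TMM factors, a trimmed mean of log ratios between samples. TMM factors gave 320 genes higher (2.59%) and 565 lower (4.58%), and moved the median over tested genes from -0.06 to 0.01 on the log2 scale. In 817 of the 818 calls the day 0 and day 3 values did not overlap, so that absence of overlap adds little to a call. Of the 818 calls, 363 (64 higher, 299 lower) were made whichever mouse was left out. The count was 541 without mouse 2, 417 without mouse 5, 507 without mouse 6 and 1282 without mouse 7.

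**Figure D1:**
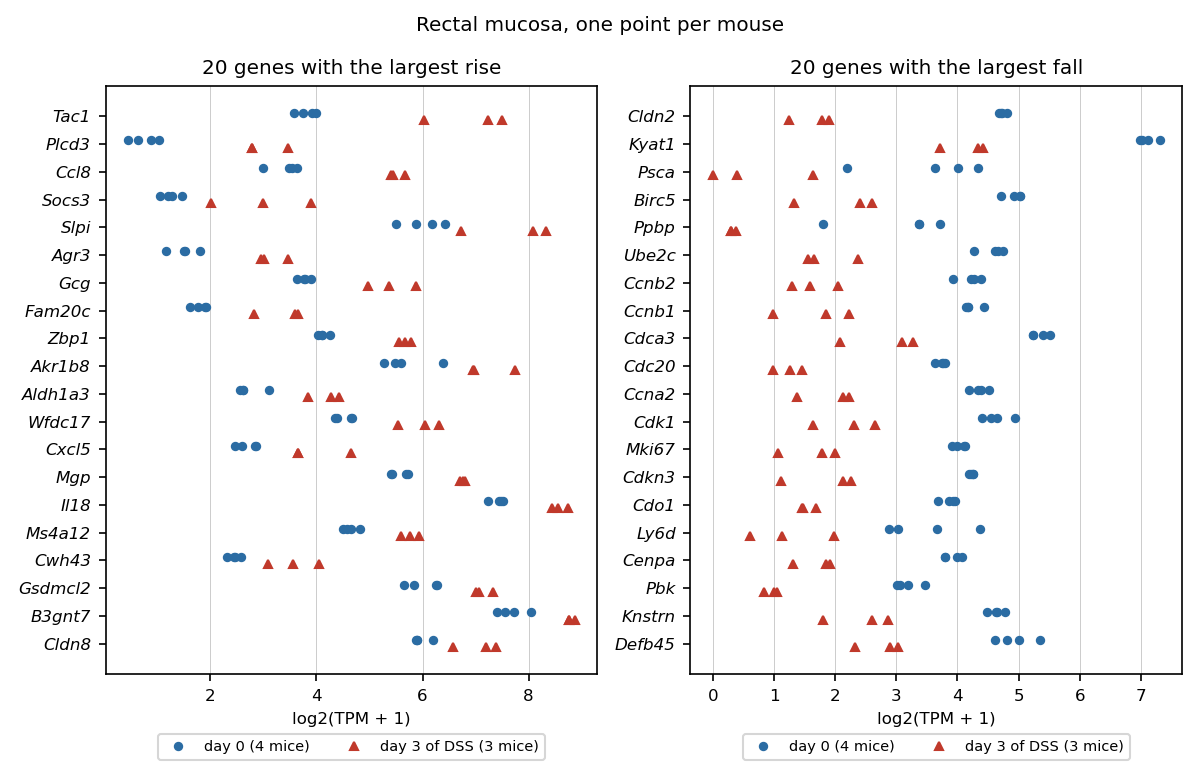
Level of the 20 genes with the largest rise (left) and the 20 with the largest fall (right) among genes that passed the test and the naming rule. The x axis is log2(TPM + 1), each circle is a day 0 mouse and each triangle a day 3 mouse. In all 40 genes the 4 day 0 points and the 3 day 3 points do not overlap, which was part of the naming rule and holds for 18.2% of all tested genes, and 10 of the 20 falls belong to the list of mitosis genes.

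Of the 40 named genes, 11 lost their call with all 19 rectal samples in the fit (adjusted p 0.0626 to 0.65): Socs3, Slpi, Zbp1, Aldh1a3, Wfdc17, Cxcl5, Mgp, Cwh43, Psca, Ppbp and Ly6d. With no filter on low values 6 did, Socs3, Slpi, Akr1b8, Cxcl5, Psca and Ly6d (adjusted p 0.0512 to 0.0921).

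Mitosis genes had the lowest median change of the lists on the log2(TPM + 1) scale. Of 34 tested genes of mitosis, 30 were lower and 0 higher, against 5.13% of all genes lower, and their median log2 change was -1.88. The members of this and the other lists were chosen with earlier results of these data known, so their counts are a description. Each list count can be set beside the 1.5% of all tested genes that were higher and the 5.13% lower. Of 31 tested genes of DNA replication, 17 were lower and 0 higher, with a median of -0.67. The summed level of the mitosis list was 355 to 421 TPM at day 0 and 84.6 to 122 TPM at day 3, and that of the replication list was 286 to 328 and 201 to 208 TPM. In bulk tissue, fewer cells of a type and less RNA per cell cannot be told apart. The mitosis count was 28 to 31 without any 1 mouse. The replication count was 8 without mouse 5 and 11 without mouse 6.

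On the log2(TPM + 1) scale, which understates the falls of low genes, the most strongly lowered division genes act late in the cycle. Cdk1 (ENSMUSG00000019942), the kinase that drives entry into mitosis, stood at 23.9, 22.4, 29.8 and 20.1 TPM in the day 0 mice and at 3.95, 5.31 and 2.13 TPM at day 3. The log2 change of Cdk1 was -2.43 ± 0.23 (SE, adjusted p 0.000576). Its partner cyclin B1 (Ccnb1) was at 17.1, 16.9, 20.6 and 16.7 TPM and then at 3.66, 2.60 and 0.989 TPM. Mouse 7 was the lowest for both genes, and the change of Ccnb1 was -2.54 ± 0.25 (adjusted p 0.000686). Cdc20, which activates the anaphase-promoting complex, held 12.5, 11.4, 12.5 and 12.9 TPM at day 0 and 1.39, 1.75 and 0.988 TPM at day 3, a level 8.96-fold lower in the mean. Its day 0 values spread least of these genes, and the change was -2.5 ± 0.13 (adjusted p 7.53e-05).

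Ube2c, the ubiquitin-conjugating enzyme of the same complex, went from 22.9 ± 3.24 TPM (SD, n = 4) to 2.75 ± 1.22 (SD, n = 3). Birc5 (survivin), a subunit of the chromosomal passenger complex, had the largest fall of the list on the log2 scale, from 29.4 ± 2.91 to 3.64 ± 1.88 TPM. The proliferation antigen Mki67 was at 14.1 to 16.3 TPM at day 0 and at 2.45, 3.01 and 1.09 TPM at day 3. Other members with a log2 change beyond -2 were Ccnb2, Ccna2, Cenpa, the centromeric histone, Pbk, Top2a, which untangles DNA, Nusap1 and Hmmr. The naming rule also picked Cdca3, Cdkn3, a phosphatase that acts on Cdk1, and Knstrn, a kinetochore protein, which were 6.12-fold, 6.40-fold and 5.17-fold lower. The 4 tested mitosis genes that did not pass were Foxm1 (1.51 and 0.345 TPM), Plk1 (9.01 and 6.20), Incenp (3.35 and 2.25) and Pttg1 (46.1 and 41.2).

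Genes of the replication fork changed less on the log2(TPM + 1) scale. Mcm10, which loads factors at origins, was at 3.39, 3.45, 3.67 and 2.47 TPM at day 0 and at 0.623, 0.698 and 0.679 TPM at day 3. The 3 day 3 mice were nearly equal, and the log2 change was -1.34 ± 0.15 (adjusted p 0.0011). The helicase subunits Mcm3, Mcm5 and Mcm6 fell by 1.24, 1.08 and 1.05, whereas Mcm2, Mcm4 and Mcm7 did not pass, at -0.51, -0.51 and -0.53. Uhrf1, which carries DNA methylation through replication, had the largest fall of the list on the log2 scale, from 2.67 ± 0.756 to 0.275 ± 0.0731 TPM. Pcna, the sliding clamp, was far more abundant and moved little: 83.7 to 89.1 TPM at day 0 and 72.2, 64.0 and 67.9 TPM at day 3, a log2 change of -0.34 ± 0.08 that passed in only 1 of the 7 fits that each left out a mouse. Thymidylate synthase (Tyms) went from 29.9 ± 3.04 to 18.4 ± 2.72 TPM. Slbp, which binds histone mRNA, and E2f2 had positive changes of 0.20 and 0.28 and did not pass. Of 7 tested histone genes, the variants H2afz (447 and 257 TPM) and H2afx (13.5 and 6.96 TPM) were lower and 0 were higher, with a median of -0.55.

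Many late cell cycle genes carry a pair of promoter elements: the cell cycle genes homology region (CHR), bound by the DREAM and MuvB complexes, and CCAAT boxes, bound by NF-Y. They are shown here because several of the members that fell furthest hold both, although Birc5, with the largest fall, held neither and Ccnb1 and Cenpa held no CHR match. The 4 sequences are the 250 bases before the RefSeq start (assembly GRCm38.p6, the mm10 build) of the 4 mitosis genes with the largest falls among those that hold both. They are written 5′ to 3′ in the direction of the gene, and capitals mark CHR letters (TTTGAA or TTCGAA, or TTCAAA on the other strand) and CCAAT boxes (CCAAT, or ATTGG on the other strand).
Ube2c: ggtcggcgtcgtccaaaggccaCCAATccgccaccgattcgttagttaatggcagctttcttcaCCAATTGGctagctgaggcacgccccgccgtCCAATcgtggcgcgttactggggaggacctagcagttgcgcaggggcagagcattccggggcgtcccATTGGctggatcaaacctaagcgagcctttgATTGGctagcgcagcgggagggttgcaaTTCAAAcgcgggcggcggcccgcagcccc
Ccnb2: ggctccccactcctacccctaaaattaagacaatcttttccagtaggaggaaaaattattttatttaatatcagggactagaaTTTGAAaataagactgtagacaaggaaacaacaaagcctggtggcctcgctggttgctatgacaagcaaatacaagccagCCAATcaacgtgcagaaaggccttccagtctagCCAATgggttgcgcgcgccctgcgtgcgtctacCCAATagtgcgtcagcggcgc
Cdc20: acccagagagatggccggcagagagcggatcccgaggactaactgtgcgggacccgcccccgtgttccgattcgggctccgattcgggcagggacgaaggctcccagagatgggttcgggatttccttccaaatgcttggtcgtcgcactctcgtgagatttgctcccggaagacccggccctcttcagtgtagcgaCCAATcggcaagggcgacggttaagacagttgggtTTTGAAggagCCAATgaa
Cdk1: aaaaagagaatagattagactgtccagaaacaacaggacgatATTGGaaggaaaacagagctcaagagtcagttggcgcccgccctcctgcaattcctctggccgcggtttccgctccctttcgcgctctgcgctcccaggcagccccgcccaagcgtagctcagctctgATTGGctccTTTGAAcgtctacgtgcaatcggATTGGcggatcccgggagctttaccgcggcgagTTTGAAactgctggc
The Ube2c sequence lies on the plus strand at chr2:164769679-164769928 and holds 1 CHR match and 6 CCAAT matches, of which a pair on opposite strands overlap. Ccnb2 (minus strand, chr9:70421555-70421804) holds 1 and 3, Cdc20 (minus strand, chr4:118437344-118437593) 1 and 2, and Cdk1 (minus strand, chr10:69352913-69353162) 2 and 3. In Ube2c, Cdc20 and Cdk1 a CHR match lies close to the start, which is the right end of each line. RefSeq starts were found for 27 of the 35 mitosis genes, 28 starts in all, of which 35.7% held a CHR match, 82.1% a CCAAT match and 35.7% both. Over the 11723 starts of tested genes these shares were 12.4%, 35.2% and 4.73%, and over the 37 starts of the replication list 18.9%, 64.9% and 16.2%. Matches of short letters are a description and not evidence of binding.

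Some crypt-base genes were lower as well. Of 17 tested genes of the stem cell and Wnt target list, 7 were lower and 0 higher (median -0.44). Hopx, a marker of slow-cycling crypt cells, was at 25.6, 24.5, 26.4 and 21.9 TPM at day 0 and at 8.38, 8.18 and 6.94 TPM at day 3. Neither group overlapped the other, and the change was -1.53 ± 0.11 (adjusted p 0.000225). Smoc2, a stem cell matrix protein, was at 3.85, 3.86, 3.88 and 3.6 TPM and then at 0.887, 0.824 and 0.911 TPM. Its values were nearly constant within each day, and the change was -1.36 ± 0.12 (adjusted p 0.00037). Axin2, a direct Wnt target, went from 2.06 ± 0.276 to 0.453 ± 0.373 TPM and Cdca7 from 9.67 ± 1.16 to 2.87 ± 1.28. The remaining calls were Ephb3, Cd44 and Prom1, and the count was 4 without mouse 5.

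The best-known crypt-base stem cell genes lay under the level needed for the test. Lgr5, the R-spondin receptor, was at 0.507, 0.511, 0.490 and 0.636 TPM at day 0 and at 0.0238, 0.0271 and 0.0711 TPM at day 3. Ascl2, its transcription factor partner in the Wnt program, was at 0.975, 0.629, 0.848 and 0.847 TPM and then listed at 0 in mice 5 and 6 and at 0.0353 TPM in mouse 7. The day 3 values of both lay wholly below those of day 0. With no filter on low values Lgr5 and Ascl2 passed in limma, at adjusted p 0.00388 and 0.00353, from values near the floor. The list held 8 genes with means under 1 TPM on both days, and the unfiltered results of the others are not given. Other members did not pass: Sox9 (10.5 and 10.8 TPM), Ephb2 (4.99 and 4.85), Lgr4 (79.9 and 76.6) and Rnf43 (8.85 and 6.53).

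Wnt and BMP signalling genes, a list of ligands, antagonists and response genes, gave 2 higher and 5 lower of 17 tested (median -0.31). Of all genes 1.5% were higher and 5.13% lower. The cells that make the called genes cannot be told from bulk tissue. Fibroblast markers were lower in the same samples (6 of 12, a summed level of 692 to 836 TPM at day 0 and 421 to 591 TPM at day 3), and their part in these changes was not tested. The BMP response genes Id1, Id2 and Id3, inhibitors of basic helix-loop-helix factors, were all lower. Id3 was at 35.6, 43.7, 54.1 and 55.7 TPM at day 0 and at 11.5, 9.92 and 18.5 TPM at day 3. The groups did not overlap, and the change was -1.78 ± 0.22 (adjusted p 0.00195). Id2 went from 29.9 ± 4.36 to 9.96 ± 2.62 TPM and Id1 from 245 ± 65.1 to 120 ± 24.6 TPM. Of the ligands, Bmp5 (4.61 and 1.48 TPM) and Bmp2 (39.2 and 24.96 TPM) were lower and Bmp3 was higher (20.3 and 34.0 TPM). The BMP antagonist Grem1 rose from 5.66 ± 1.03 to 11.7 ± 3.76 TPM, a call made in 3 of the 7 leave-one-out fits. R-spondin 3, Rspo3 (1.95 and 2.66 TPM) did not pass. The lower count was 2 without mouse 5, 3 without mouse 6 and 8 without mouse 7, and the higher count 1 without mouse 1, 2, 3 or 5.

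**Figure D2:**
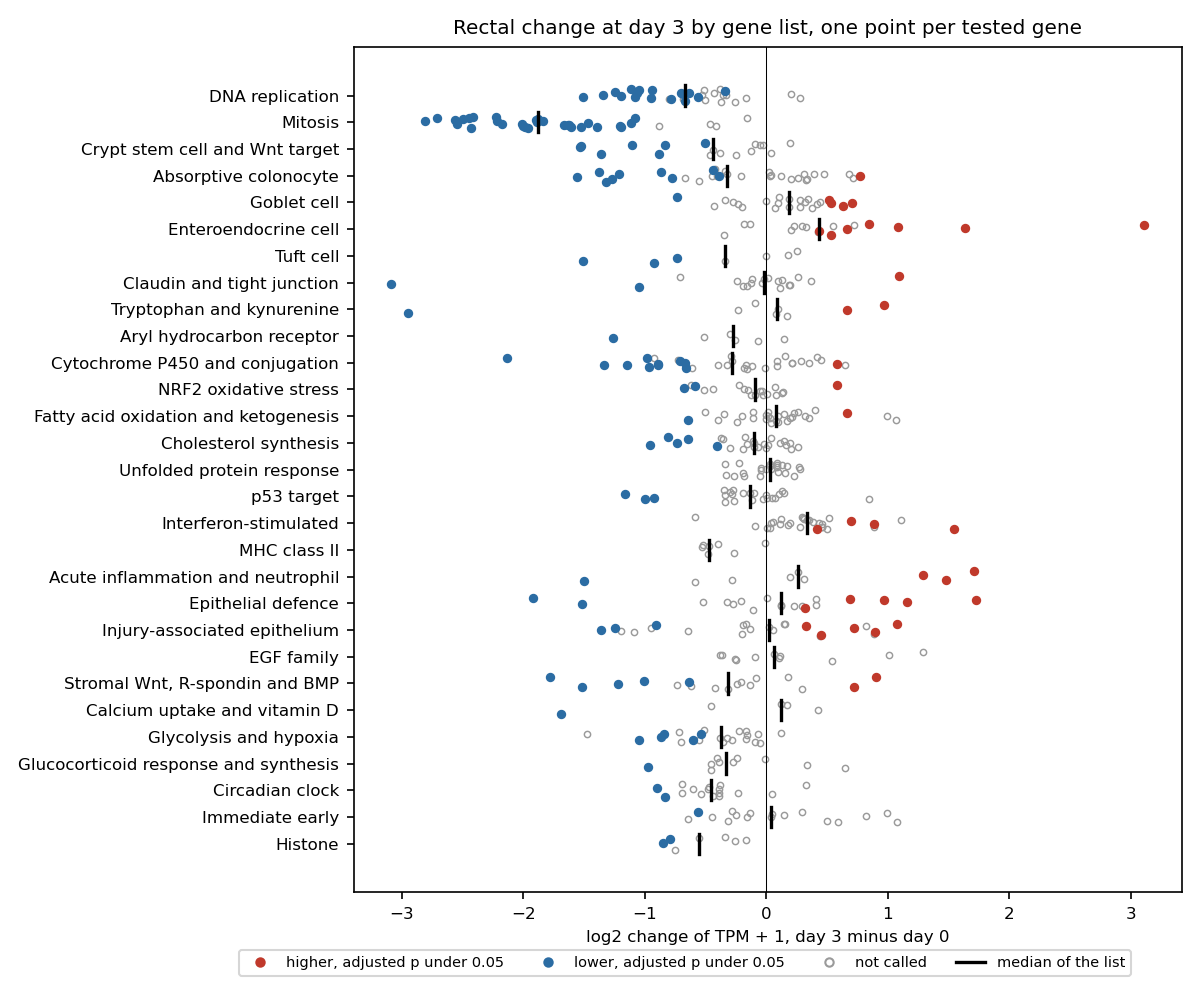
Log2 change of TPM + 1 (day 3 minus day 0, x axis) of every tested gene of the 29 pathway and epithelial lists. Filled red and blue points passed the test, open points did not, and the black bar is the median of the list. The mitosis list has its median at -1.88 and the enteroendocrine list at 0.43, whereas most lists straddle 0.

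Among absorptive colonocyte genes, 1 of 31 tested was higher and 9 were lower (median -0.33), against 1.5% and 5.13% of all genes. Several of the losses were in salt and water handling. Scnn1g, a subunit of the epithelial sodium channel that the distal colon uses to reclaim sodium, was at 39.8, 61.7, 41.9 and 45.3 TPM at day 0 and at 10.5, 20.0 and 16.4 TPM at day 3. The highest day 3 mouse was below the lowest day 0 mouse, and the change was -1.55 ± 0.22 (adjusted p 0.00351). The other subunits fell too, Scnn1b from 27.5 ± 1.67 to 11.4 ± 2.04 TPM and Scnn1a from 128 ± 13.7 to 74.1 ± 6.83 TPM. Carbonic anhydrase 4 (Car4) was at 2731, 3056, 3297 and 3230 TPM and then at 1018, 1414 and 1301 TPM. The water channel Aqp8 was at 828 to 1186 TPM at day 0 and at 305, 545 and 432 TPM at day 3. Both fell in all 3 day 3 mice, by 1.32 ± 0.12 and 1.27 ± 0.19 on the log2 scale (adjusted p 0.000511 and 0.00513).

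The remaining falls were Clca4a, which has near-identical copies that make its level uncertain, Ceacam20, the sodium-proton exchanger Slc9a2 and Ceacam1. Carbonic anhydrase 1 (Car1) rose, from 3940 ± 701 to 6692 ± 745 TPM, and the rise was not called without mouse 5. The chloride exchanger Slc26a3 (1172 and 1203 TPM), the differentiation marker Krt20 (666 and 506 TPM) and the regulator Hnf4a (221 and 176 TPM) did not pass. With TMM factors the list had 5 genes higher and 8 lower, and the higher count was 0 without mouse 5, 2 without mouse 3 and 3 without mouse 7. Trpv6, the apical calcium channel, was lower at 24.5, 26.5, 31.3 and 19.0 TPM against 5.66, 5.75 and 10.6 TPM, while the calcium-binding S100g (288 and 293 TPM) and the vitamin D receptor Vdr (326 and 242 TPM) did not pass, so that 1 of 5 genes of calcium uptake was lower and 0 higher.

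Of 19 tested claudin and tight junction genes, 2 were lower and 1 higher (median -0.01), against 5.13% and 1.5% of all genes. The 3 calls were all claudins whose pores or seals set paracellular ion flow. Cldn2, which forms a cation and water pore in crypt cells, had the largest fall of the 20 named falls on the log2(TPM + 1) scale, with 24.6, 25.1, 26.9 and 25.5 TPM at day 0 and 1.38, 2.75 and 2.44 TPM at day 3. The other cation pore, Cldn15, was at 6.96 to 8.70 TPM and then at 3.12, 2.27 and 4.58 TPM (log2 change -1.04 ± 0.18, adjusted p 0.00963). Cldn8, a sealing claudin of the distal colon, rose from 72.0, 58.9, 57.4 and 58.2 TPM to 166, 146 and 94.8 TPM. Mouse 7 had the smallest rise, and the change was 1.09 ± 0.18 (adjusted p 0.00771). The abundant Cldn7 (738 and 674 TPM) and Cldn3 (448 and 450 TPM), occludin, Ocln (148 and 172 TPM) and Tjp1 (58.0 and 49.0 TPM) did not pass. Without mouse 7 the lower count was 4.

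Some hormone genes were higher. Of 17 tested enteroendocrine genes 7 were higher and 0 lower, against 1.5% of all genes higher, with a median of 0.43. The summed level of the list was 283 to 347 TPM at day 0 and 576 to 667 TPM at day 3. Tac1, which encodes substance P and neurokinin A and is made by enterochromaffin cells and by enteric neurons, was at 10.8, 14.8, 12.5 and 14.0 TPM at day 0 and at 179, 149 and 64.1 TPM at day 3. Even mouse 7, the lowest, was more than 4-fold above the highest day 0 mouse. Of 14 listed neuron and glia genes only 4 reached the level tested and 0 passed, with Vip at 7.12 and 5.29 TPM and Uchl1 at 1.56 and 1.24 TPM. The cell source of the Tac1 rise was not tested.

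Gcg, the precursor of glucagon-like peptides in L cells, was at 12.7, 13.9, 11.4 and 12.5 TPM at day 0 and at 40.2, 30.4 and 57.7 TPM at day 3. The change was 1.64 ± 0.19 (adjusted p 0.00147). Insl5, a relaxin-like peptide of distal L cells, was at 56.5, 34.3, 47.5 and 63.6 TPM and then at 107, 96.0 and 116 TPM (1.09 ± 0.19, adjusted p 0.00971). Tac1, Gcg and Insl5 were called whichever mouse was left out. Pyy (172 and 233 TPM), Chgb (12.6 and 23.4), Tph1, the enzyme of gut serotonin synthesis (2.36 and 4.26), and Scg2 (3.92 and 6.09) were also higher but depended on single mice, and the list's count was 4 without mouse 3 and 3 without mouse 2, 5 or 6. The transcription factors Neurog3, Neurod1 and Insm1 were too low to test, and Chga (10.2 and 14.3 TPM) did not pass.

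Goblet cell genes shifted less. Of 23 tested, 4 were higher and 1 lower (median 0.19), against 1.5% and 5.13% of all genes. The gel-forming mucin Muc2 was at 596, 510, 643 and 630 TPM at day 0 and at 898, 856 and 792 TPM at day 3, a change of 0.52 ± 0.10 (adjusted p 0.0141). The groups did not overlap. Clca1, a protease of the mucus layer, went from 2304 ± 262 to 3323 ± 91.0 TPM, Agr2, which folds Muc2, from 1111 ± 158 to 1719 ± 208 TPM, and Spink4 from 871 ± 133 to 1433 ± 288 TPM. Zg16, the lectin that keeps bacteria off the epithelium, went the other way, from 5786 ± 807 to 3479 ± 416 TPM, and was the only call of the list made whichever mouse was left out. The higher count was 0 without mouse 5, 1 without mouse 6 and 6 without mouse 7 or with TMM factors. The goblet regulators Atoh1 (11.6 and 12.2 TPM) and Spdef (13.8 and 16.9 TPM) did not pass. Agr3, a relative of Agr2 outside the list, was at 1.86 ± 0.511 and 7.95 ± 1.76 TPM, and the mucin glycosyltransferase B3gnt7 at 207 ± 41.9 and 444 ± 19.2 TPM.

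Of 7 tested tuft cell genes, 3 were lower and 0 higher (median -0.34), against 5.13% and 1.5% of all genes. The summed level of the list overlapped between days, at 125 to 140.5 TPM at day 0 and 115.2 to 139.6 TPM at day 3. Hpgds, the prostaglandin D synthase of tuft cells and of some immune cells, was at 24.6, 22.6, 24.8 and 24.7 TPM at day 0 and at 6.72, 8.89 and 8.11 TPM at day 3 (-1.51 ± 0.11, adjusted p 0.000231). Ptgs1 (4.95 and 2.22 TPM) and Alox5ap (6.87 and 3.78 TPM), which act in the same prostaglandin and leukotriene pathways, were the others. The defining tuft genes Dclk1, Trpm5 and Pou2f3 were under the level tested, and the count was 1 without mouse 5 or 6.

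Antibacterial and oxidative defence genes split. Of 19 tested, 5 were higher and 2 lower (median 0.13), against 1.5% and 5.13% of all genes. Il18, an epithelial cytokine of the inflammasome pathway, was at 182, 178, 172 and 150 TPM at day 0 and at 426, 374 and 347 TPM at day 3. The rise of 1.16 ± 0.10 (adjusted p 0.000372) was called whichever mouse was left out. Socs3, the feedback inhibitor of STAT3 signalling, was at 1.08, 1.29, 1.41 and 1.74 TPM and then at 13.9, 3.04 and 6.98 TPM. The day 3 mice differed among themselves by more than 4-fold, and the call (1.72 ± 0.37, adjusted p 0.0246) was made in only 2 of the 7 leave-one-out fits. The tryptophan-degrading enzyme Ido1 (0.801 and 2.52 TPM) and the calcium-binding S100a11 (363 and 588 TPM) and S100a6 (5279 and 6578 TPM) were also higher. The day 0 mean of Ido1 lay under the 1 TPM used as the level for testing.

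Nox1, the colonocyte superoxide-producing oxidase, was at 4.51, 5.10, 5.36 and 6.50 TPM at day 0 and at 0.245, 1.41 and 0.552 TPM at day 3 (-1.92 ± 0.22, adjusted p 0.0016), a 7.29-fold lower mean. Reg4, a lectin of deep crypt secretory cells, went from 171 ± 34.1 to 59.0 ± 11.6 TPM. The defensin Defb45, named by the rule, fell from 30.3 ± 6.98 to 5.86 ± 1.66 TPM. Reg3b, Reg3g and Nos2, which rise in full colitis, were under the level tested. The higher count of the defence list was 3 without mouse 1 and 2 without mouse 2, 3, 5 or 6.

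Most neutrophil genes were too low to test. Of 33 genes of acute inflammation and neutrophils only 9 reached the level tested, and Cxcr2, Csf3r, Mpo, Elane, Cxcl1, Cxcl2, Il1b, Il6 and Tnf did not. Among the 9, 3 were higher and 1 lower (median 0.26), against 1.5% and 5.13% of all genes. Of the 3, S100a8 and Saa3 reached the level tested mainly through their day 3 values. The higher share is therefore not a like comparison with that of all genes. The neutrophil protein S100a8 was listed at 0, 1.27, 0.715 and 0 TPM at day 0 and at 4.28, 2.46 and 4.29 TPM at day 3, but its partner S100a9 was at 2.01 and 0.795 TPM. Cxcl5, an epithelial neutrophil attractant, was at 5.07, 4.55, 6.22 and 6.15 TPM and then at 24.1, 11.6 and 11.5 TPM (1.29 ± 0.24, adjusted p 0.0137). Its rise was called whichever mouse was left out, but not with all 19 rectal samples in the fit (adjusted p 0.551) or with no filter (adjusted p 0.0545). Saa3 was at 0.443 and 3.30 TPM. Serum amyloid Saa1 fell, from 1496, 1711, 1509 and 2856 TPM to 656, 749 and 547 TPM (-1.50 ± 0.22, adjusted p 0.00463), though its near-identical neighbour Saa2 makes its level uncertain. The higher count was 1 without mouse 5.

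Other named rises were in genes of immune cells and secreted proteins. The monocyte attractant Ccl8, made by macrophages, was at 10.6, 6.97, 10.1 and 11.4 TPM at day 0 and at 42.7, 41.6 and 49.8 TPM at day 3 (2.10 ± 0.16, adjusted p 0.000265). The day 3 mice agreed closely. Of 14 tested macrophage and monocyte markers 0 passed, 5 had an unadjusted p under 0.05, their median was -0.25 and their summed level was 264 to 350 TPM at day 0 and 289 to 396 TPM at day 3. Without mouse 7 there were 4 lower. The protease inhibitor Slpi was at 71.4, 85.0, 57.9 and 44.5 TPM and then at 270, 321 and 105 TPM, a call (1.71 ± 0.36, adjusted p 0.0249) made in only 3 of the 7 leave-one-out fits. Wfdc17 (21.9 ± 2.76 and 62.6 ± 16.4 TPM) and matrix Gla protein, Mgp (46.5 ± 5.62 and 107 ± 3.38 TPM), were called whichever mouse was left out, but not with all 19 rectal samples in the fit (adjusted p 0.184 and 0.103). The phospholipase Plcd3 was at 0.838, 0.546, 1.05 and 0.361 TPM at day 0 and at 5.87, 10.0 and 5.85 TPM at day 3, the second largest rise on the log2(TPM + 1) scale (2.26 ± 0.22, adjusted p 0.000607).

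The retinoic acid-producing enzyme Aldh1a3 (5.68 ± 1.27 and 17.4 ± 3.61 TPM), the aldo-keto reductase Akr1b8 (52.8 ± 20.1 and 153 ± 51.3 TPM), the Golgi kinase Fam20c (2.503 ± 0.336 and 9.51 ± 3.02 TPM), Ms4a12 (24.0 ± 2.40 and 53.7 ± 6.39 TPM), the gasdermin Gsdmcl2 (64.2 ± 13.8 and 139 ± 16.9 TPM) and Cwh43 (4.46 ± 0.406 and 11.3 ± 4.06 TPM) completed the list of named rises outside the groups.

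Interferon-stimulated genes mostly had small positive changes. Of 29 tested, 27 had a positive log2 change (median 0.34), against a share of 61.6% negative over all tested genes, but only 4 passed and 0 were lower. Zbp1, a sensor of Z-form nucleic acids, was at 18.1, 16.1, 16.2 and 15.4 TPM at day 0 and at 50, 46.0 and 54.0 TPM at day 3. The values were tight on both days, and the change was 1.54 ± 0.10 (adjusted p 0.000145, and 0.281 with all 19 rectal samples in the fit). Ifit1bl1 (168 and 309 TPM), Oas1a (42.6 and 57.1 TPM) and Ifit3b, which has a near-identical copy (1.10 and 2.40 TPM), were the others. Gbp2 (15.5 and 35.0 TPM) did not pass. The count was 2 without mouse 3 and 1 without mouse 5 or 6, and without mouse 6 another gene was lower. None of 7 MHC class II genes passed in limma in either direction (median -0.47, 2 at an unadjusted p under 0.05).

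Genes tied to injured or fetal-like epithelium went both ways. Of 23 tested, 5 were higher and 3 lower (median 0.03), against 1.5% and 5.13% of all genes. The surface protein Ly6a (Sca-1), which has near-identical relatives, was at 631, 550, 581 and 738 TPM at day 0 and at 1195, 1127 and 806 TPM at day 3, called in only 2 of the 7 leave-one-out fits. Keratin 7, Krt7 (78.2 ± 15.3 and 145 ± 8.05 TPM) was called whichever mouse was left out, and Anxa1, Anxa3 and Phlda1 were the other rises. Annexin A8 (Anxa8) fell from 498, 416, 360 and 391.7 TPM to 170, 158 and 155 TPM (-1.36 ± 0.11, adjusted p 0.000326), with the alarmin Il33 (6.22 and 2.06 TPM) and the laminin chain Lama3 (49.0 and 25.8 TPM). Clu (23.6 and 8.73 TPM) did not pass. The higher count was 2 without mouse 1, 2 or 3, 1 without mouse 5 and 3 without mouse 6. None of 11 EGF family genes passed in limma (median 0.07, 4 at an unadjusted p under 0.05), among them the ligands Areg (15.2 and 41.5 TPM) and Hbegf (5.24 and 11.4 TPM). Without mouse 7 there were 3 higher and 1 lower, and without mouse 3 there was 1 higher.

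Several metabolic and detoxifying genes were called. Kyat1, which converts kynurenine to kynurenic acid and cleaves cysteine conjugates, had the second largest fall of the 20 named falls on the log2(TPM + 1) scale: 126, 138, 129 and 157 TPM at day 0 and 12.2, 19.2 and 20.4 TPM at day 3. It was the only lower gene of 8 tested in tryptophan metabolism, where Ido1 and Tph1 were the 2 higher (median 0.09, 1 higher without mouse 1 or 5 and 0 without mouse 2, 3, 6 or 7). Cdo1, which oxidises cysteine, was at 11.8, 14.5, 13.6 and 14.2 TPM and then at 1.78, 2.23 and 1.76 TPM (-2.31 ± 0.12, adjusted p 7.53e-05). Both amino acid enzymes were lower by more than 7-fold in the mean. Of 33 tested cytochrome P450 and conjugation genes, 10 were lower and 1, Cyp2c68, was higher (median -0.28). Gstm1, a glutathione transferase, went from 193 ± 20.6 to 77.6 ± 21.9 TPM, the carboxylesterase Ces1f from 7.02 ± 2.10 to 0.877 ± 0.749 TPM, and the efflux pump Abcg2 from 55.6 to 33.6 TPM. These families hold near-identical copies, so that single levels are uncertain. With TMM factors 4 of the list were higher, and the higher count was 0 without mouse 2 or 5 and 2 without mouse 3 or 4.

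Glycolytic and hypoxia genes gave 5 lower and 0 higher of 22 tested (median -0.37): the lactate exporter Slc16a3, the oxygen sensor Egln3, the growth factor Vegfa (46.9 ± 4.95 and 25.7 ± 2.65 TPM), lactate dehydrogenase Ldha (1895 ± 147 and 1249 ± 80.4 TPM) and Pkm. The count was 9 without mouse 4 or 7 and 3 without mouse 5. Cholesterol synthesis gave 5 lower and 0 higher of 25, among them Dhcr7 (76.0 and 42.3 TPM) and the SREBP regulator Insig1 (41.7 and 24.8 TPM), with a median of -0.10. Of all genes 1.5% were higher and 5.13% lower. In fatty acid oxidation Acaa2 was higher (85.7 and 137 TPM) and the regulator Pparg lower (34.3 and 21.5 TPM) of 29 tested (median 0.08). Without mouse 6 no gene of it was higher, without mouse 5 no gene was lower, and without mouse 7 there were 2 in each direction.

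Stress response lists were read against the 6.62% of all genes called. Of 23 unfolded protein response genes 0 passed in limma (median 0.04, 4 at an unadjusted p under 0.05), with the chaperone Hspa5 at 277 and 306 TPM. With TMM factors 1 was higher, and without mouse 7 there was 1 lower. Of 23 p53 targets 3 were lower and 0 higher (median -0.14). The cell cycle inhibitor Cdkn1a was at 291, 219, 260 and 235 TPM at day 0 and at 115, 167 and 117 TPM at day 3 (-0.93 ± 0.15, adjusted p 0.00711), and Gtse1 and Ddit4l were the others. Bax (53.01 and 53.6 TPM) and Mdm2 (20.4 and 18.8 TPM) did not pass, and the p53 count was 1 lower and 1 higher without mouse 5. With TMM factors 1 was higher. Of 19 NRF2 targets, thioredoxin Txn1 was higher (896 and 1344 TPM) and Gpx2 and Srxn1 were lower (median -0.09, 1 lower without mouse 3, 5 or 6). Of 6 aryl hydrocarbon receptor genes Aldh3a1 alone was lower (2.46 and 0.430 TPM, median -0.28, 2 lower without mouse 1), and Cyp1a1 was under the level tested.

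Timing and hormone lists were read against the 1.5% of all genes higher and the 5.13% lower. Of 16 clock genes 2 were lower and 0 higher, among them Dbp (93.6 and 51.6 TPM), with a median of -0.45. That count was 1 without mouse 1, 2, 3, 5 or 6, 4 without mouse 4 and 7 without mouse 7, and the labels give no hour of killing. Of 10 glucocorticoid genes Hsd11b1, which regenerates corticosterone, was lower (4.66 and 1.84 TPM) and 0 were higher (median -0.33). It was not called without mouse 3, 5 or 6, there were 3 lower without mouse 7, and 1 gene was higher without mouse 5 or with TMM factors. Of 17 immediate early genes, which respond within minutes to handling or stress, Dusp1 was lower and 0 were higher (median 0.04). Dusp1 did not pass with TMM factors or without mouse 1, 2, 3 or 5, and without mouse 7 there were 3 higher.

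Markers of other cell types were followed in the same samples. Of 12 fibroblast genes 6 were lower and 0 higher (median -0.51): the collagens Col1a1, Col1a2 and Col3a1 (249 and 149 TPM), decorin Dcn (220 and 149 TPM), Dpt and Mfap5. The summed level of the list was 692 to 836 TPM at day 0 and 421 to 591 TPM at day 3, without overlap. The count was 3 without mouse 2, 1 without mouse 5 or 6 and 9 without mouse 7. Smooth muscle markers gave 0 of 10 called by limma, at 1082 to 1297 and 990 to 1409 TPM in sum, and endothelial markers 0 of 9 at 44.5 to 66.9 and 44.3 to 61.2 TPM. Skeletal muscle (0 of 4, 14.8 to 44.8 and 12.0 to 18.5 TPM) and T cell markers (0 of 3, 4.54 to 8.06 and 3.48 to 8.44 TPM) did not pass either. None of these 4 lists, nor the neuron and glia list, had a gene at an unadjusted p under 0.05. Of the mast cell markers 0 of 2 passed, 1 with an unadjusted p under 0.05, at 9.83 to 11.5 and 12.0 to 19.2 TPM. No B cell marker reached the level tested, and their sum was 2.25 to 38.9 TPM at day 0 and 1.45 to 2.23 TPM at day 3. Without mouse 7 there were 2 smooth muscle and 1 endothelial gene lower and 2 mast cell genes higher.

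Plasma cell genes had a median of -1.23 with 0 of 9 called and 6 at an unadjusted p under 0.05: the heavy chain Igha was at 146 and 48.1 TPM and the summed list at 425 to 1415 TPM and 191 to 459 TPM, so that the groups overlapped. Without mouse 2 or 7 there was 1 lower. Squamous epithelium, which the anal canal holds, had a median of -1.40 with 0 of 11 called and 7 at an unadjusted p under 0.05, and its summed level was 102 to 313 TPM at day 0 and 103 to 224 TPM at day 3. Keratin 13 (Krt13), a differentiation keratin of that epithelium, was at 45.0, 17.9, 34.2 and 2.76 TPM in the day 0 rectal mice and at 1.39, 3.48 and 0.650 TPM at day 3. Mouse 4 lay among the day 3 values, and without it 5 squamous genes were called lower.

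Some named falls were in genes that are abundant in the anal section. Psca was at 15.2, 11.4, 19.2 and 3.57 TPM at day 0 and at 0.316, 2.12 and 0 TPM at day 3, Ppbp at 9.40, 9.36, 12.1 and 2.495 TPM and then at 0.227, 0.305 and 0.236 TPM, and Ly6d at 19.6, 6.37, 7.15 and 11.7 TPM and then at 1.20, 2.95 and 0.518 TPM. For Psca and Ppbp mouse 4 was again the lowest of day 0, whereas for Ly6d it was mouse 2. In the anal section these genes stood at 1440.0, 825 and 1813 TPM at day 0 and at 398, 187 and 1660 TPM at day 3. Psca and Ppbp were lower there by log2 changes of -1.79 and -2.09 but did not pass in limma (adjusted p 0.0962 and 0.0514). The anal change of Ly6d was -0.11. The part of adjoining anal tissue in these 3 falls was not tested.

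**Figure D3:**
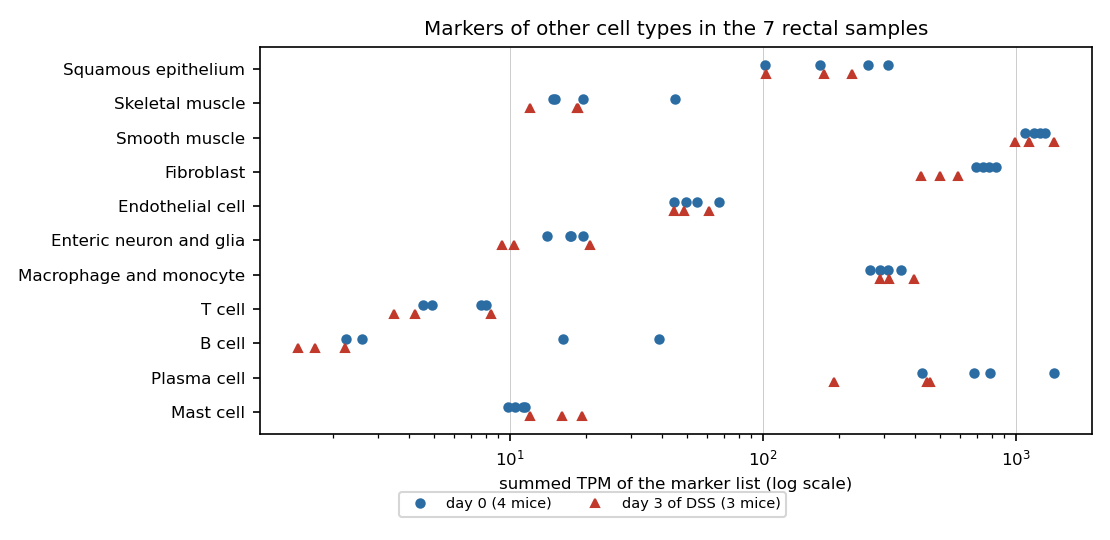
Summed TPM of the 11 marker lists of other cell types (x axis, log scale), a circle for each day 0 mouse and a triangle for each day 3 mouse. The fibroblast sums of day 3 (421 to 591 TPM) lie below those of day 0 (692 to 836 TPM), while the squamous, smooth muscle and macrophage sums overlap between days.

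The rectal response was then set against the other sections of the same mice, to ask whether the change differed along the bowel. Day 3 alone called 45 of 12008 genes in mid-colon (0.375%) and 6 of 13639 in anus (0.044%). Tac1 and Mgp, named rises of rectum, were among the genes called in anus. Tac1 was at 3.16 and 34.4 TPM there (log2 change 3.08, limma adjusted p 0.0139) and Mgp at 150 and 585 TPM (1.95, adjusted p 0.0445). Their differences between rectum and anus did not pass in limma (adjusted p 0.991 and 0.262). Over the 32 mitosis genes tested in all 3 sections, the median log2 change was -1.89 in rectum, -0.99 in mid-colon and 0.06 in anus, beside medians of -0.06, 0.14 and 0.11 over the 11455 genes tested in all 3. For the 27 replication genes these medians were -0.63, -0.25 and -0.06. None of the genes of either list was called in mid-colon or anus alone. In mid-colon 31 of 32 tested mitosis genes had a negative change, and in anus 13 of 34.

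**Figure D4:**
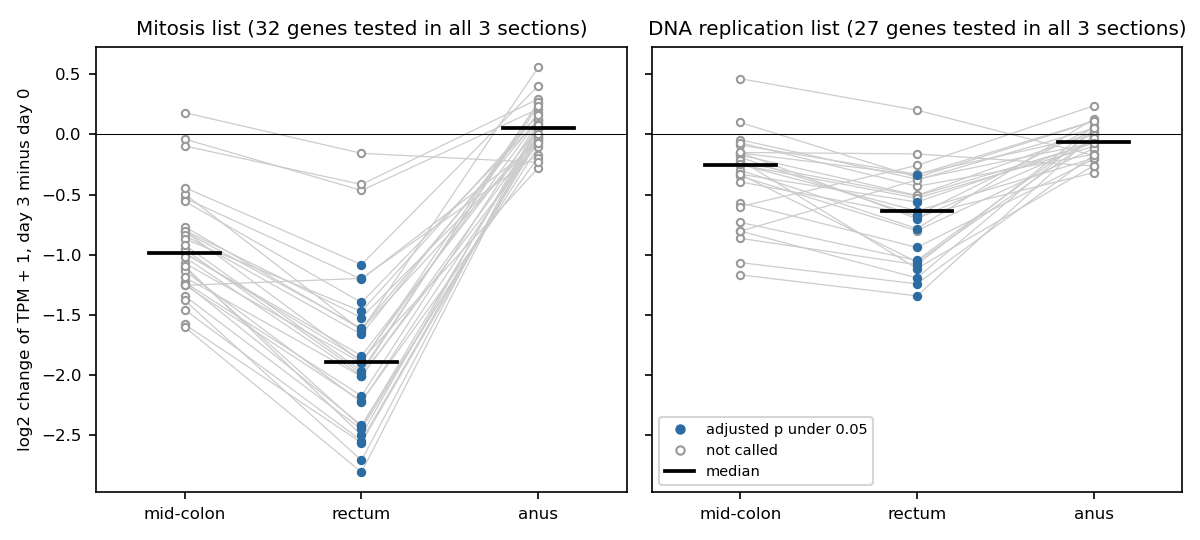
Log2 change of TPM + 1 (day 3 minus day 0, y axis) of the mitosis genes (left) and DNA replication genes (right) in mid-colon, rectum and anus, with a line for each gene, filled points where the gene passed the test in that section and a bar at the median. The rectal median of the mitosis list is -1.89, below -0.99 in mid-colon and 0.06 in anus.

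The difference itself was tested. Between rectum and anus the change differed in 68 of 14338 genes (0.474%), with 59 more negative in rectum (0.411%) and 9 more positive (0.0628%). Of these, 58 and 5 also reached the level tested in rectum alone. Among the 5, Aldh1a7 and Gsto1 were not called in rectum (limma adjusted p 0.137 and 0.0815), and Ttc36 had a rectal log2 change of 0.0511. The other 4 of the more positive genes, Adam28, Chac1, Cyp2a5 and Muc20, had rectal means of at most 0.349 TPM on both days and entered the test through their anal level, so that their difference shows no rectal rise. With the mouse as a block, since both sections came from the same mice, 8 differed and 7 were shared with the 68. Of the mitosis list 19 genes were among the 68, all more negative in rectum, and 3 among the 8, namely Cdk1, Cenpa and Ckap2l. The median difference was -1.93 over that list and -0.17 over all genes, which TMM factors moved to -0.03 with 68 calls again. The count was 37 without mouse 1, 7 without mouse 2, 10 without mouse 3, 156 without mouse 4, 26 without mouse 5, 20 without mouse 6 and 16 without mouse 7.

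Kyat1 had the largest difference. In anus it was at 77.5 ± 13.3 TPM at day 0 and 79.4 ± 18.7 TPM at day 3, so that the log2 change was 2.97 ± 0.27 (SE) lower in rectum (adjusted p 0.000641, and 0.00905 with the block). Birc5 was at 21.7 ± 7.16 and 22.1 ± 5.39 TPM in anus (difference -2.86 ± 0.43, adjusted p 0.0129, and 0.0644 with the block). Cdc20 and Cdca3 had differences of -2.58 and -2.55 and adjusted p of 0.0621 each with the block. Clca4a had a log2 change of -1.38 in rectum and of 1.48 in anus, where it was at 39.3 ± 17.6 and 119.9 ± 67.8 TPM and was not called alone (difference -2.86, adjusted p 0.0429, and 0.086 with the block). Of the genes more positive in rectum, Plcd3 was already at 7.13 ± 1.47 TPM in uninjured anus, and its difference of 1.96 ± 0.30 passed without and with the block (adjusted p 0.0142 and 0.0455). Aldh1a3 went from 63.5 ± 17.4 to 44.0 ± 12.5 TPM in anus (difference 1.98, adjusted p 0.0188, and 0.0752 with the block). Ttc36 was at 3.61 and 3.75 TPM in rectum and at 16.5 and 3.18 TPM in anus, so that its difference came with a lower anal level and not a rectal rise. Of these 8 genes and the pair of Cyp2a5 and Chac1, which the rule also picked and which were under 1 TPM in rectum on both days, 9 lost their call without mouse 2, 8 without mouse 7, 7 without mouse 3, 6 without mouse 5 or 6 and 2 without mouse 1. Only Kyat1 kept it whichever mouse was left out.

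Between rectum and mid-colon no gene of 12775 differed in limma (0.0% called, smallest adjusted p 0.0881), with 971 at an unadjusted p under 0.05. With the mouse as a block 3 genes did, all more negative in rectum: Cdk1 (adjusted p 0.0487), and the predicted genes Gm21885 and Gm13226, named because they are the whole count. The median difference over all genes was -0.20, and -0.00 with TMM factors, and over the mitosis list it was -0.85, negative in 33 of 35 genes. There were 10 calls without mouse 4 and 5 without mouse 7. Several rectal changes had counterparts in mid-colon: Cldn2 was at 20.6 and 5.55 TPM there, Gcg at 12.2 and 39.0 TPM, Aqp8 at 1607 and 676 TPM, Anxa8 at 288 and 90.6 TPM and Kyat1 at 184 and 28.2 TPM, each called in mid-colon alone (adjusted p 0.0473, 0.011, 0.011, 0.00232 and 0.004). Scnn1g, at 16.7 and 12.2 TPM in mid-colon, and Il18, at 209 and 326 TPM, were not.

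The levels of the same genes on later days, from other mice, are given as values only, with no test. Mki67, at 15.4 ± 1.05 TPM on day 0 and 2.18 ± 0.988 on day 3, stood at 3.73 ± 3.73 TPM on day 6, when the DSS period ended, and at 48.7 ± 3.19 TPM on day 9 (SD, n = 3 each). Cdk1 had the same order, with 10.5 ± 8.96 and 115 ± 25.3 TPM on days 6 and 9. Cldn2 was lowest on day 6, at 0.386 ± 0.354 TPM, and was at 23.9 ± 8.14 TPM on day 9. Kyat1 was at 48.0 ± 4.67 TPM on day 6, 13.5 ± 5.65 on day 9 and 51.2 ± 43.6 on day 20, so that its level on day 9 was like that of day 3. Scnn1g, which was 15.7 ± 4.78 TPM on day 3, was at 21.7 ± 13.1 on day 6 and at 5.79 ± 3.33 TPM on day 20.

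Rises had separate courses. Tac1 was at 193 ± 56.0 TPM on day 6 and at 19.3 ± 13.3 on day 20. Gcg was higher still on day 6 (173 ± 41.4 TPM) and day 9 (132 ± 18.4 TPM). Ccl8 was at 460 ± 185 and 516 ± 23.4 TPM on those days, after 44.7 ± 4.47 TPM on day 3. Il18 behaved otherwise: after 382 ± 40.4 TPM on day 3 it was at 257 ± 19.4 TPM on day 6 and at 50.8 ± 15.5 TPM on day 9, under its day 0 level of 170.5 ± 14.0. Car4, low on day 3, was at 4851 ± 612 TPM on day 6 and at 1459 ± 346 TPM on day 9. Saa1, also low on day 3, reached 10480.0 ± 3630.0 TPM on day 6. For several of these genes the SD on day 6 was a large part of the mean.

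**Figure D5:**
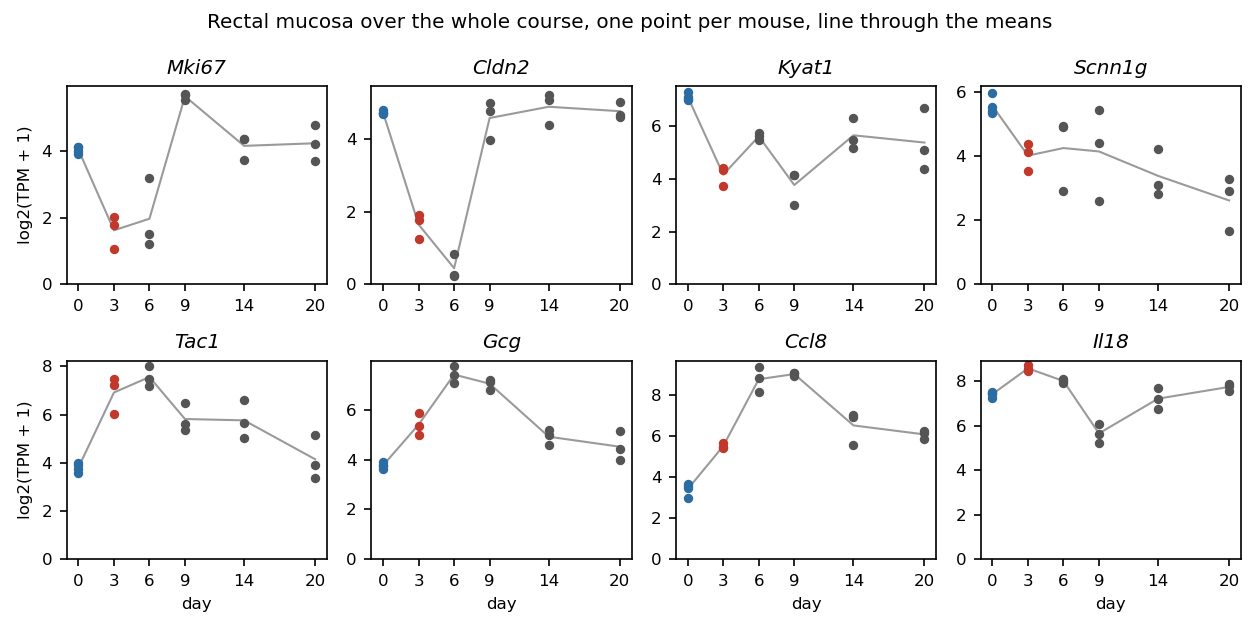
Rectal level of 8 genes from day 0 to day 20 (x axis in days, y axis log2(TPM + 1)), a point for each mouse and a line through the daily means. Blue points are day 0, red points day 3 and grey points later days. Mki67 and Cldn2 are low on days 3 and 6 and near or above day 0 on day 9, while Il18 is highest on day 3.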

How the data were processed

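RNA of the 7 rectal samples, and of the mid-colonic and anal samples of the same mice, had been prepared with a stranded mRNA library kit and sequenced from a single end, per the labels' protocols. The deposited values are a signal per transcript, TPM, made by the authors with kallisto on mm10, per the submitters' processing notes, which also name CASAVA. Their versions and the transcript annotation are not given in the sources used here. The table had 126860 rows, of which 37344 held no values and 1318 repeated another row and were dropped. The other 88198 transcripts were summed to 30452 genes, and 1284 transcripts without a gene held 0.627 to 0.74% of rectal TPM. TPM keeps no read depth, so counting error cannot be given. Transcripts of near-identical copies share reads, and kallisto's split of them makes the level of single copies uncertain.

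Genes with at least 1 TPM in 3 samples were tested with limma 3.58.1 (R 4.3.3) on log2(TPM + 1) with a trended prior and Benjamini-Hochberg adjustment at 0.05. Fold changes on this scale understate those of low genes. Differences between sections used an interaction term over both sections. Mice were the replicates, and the labels give no batch. The labels' mouse numbers pair the sections of a mouse: deviations from the group means correlated at a mean of 0.141 between rectum and mid-colon and 0.065 between rectum and anus, and the fit with the mouse as a block is given beside the results it changes. TMM factors were computed on TPM as a scaling alternative. The test was tried on simulated data first.

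Named genes were the 20 largest rises and 20 largest falls with an adjusted p under 0.05, no overlap between days, a mean of at least 5 TPM in the higher group and a symbol that is not a predicted, pseudogene or antigen receptor name, with the 5 largest differences in each direction between sections, and the members of 40 lists. The members and lists were chosen with earlier results of these data known. Symbols of 30123 gene IDs were found in a name table. Promoters came from a RefSeq table of GRCm38.p6. Python 3.11.15, pandas 2.3.3 and numpy 2.4.6 were used. Values of some list members are not reported here.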

Additional observations from a re-analysis of the deposited data

Results flagged for a closer look

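In 3 named genes the highest day 0 mouse stood apart from the other 3 by more of the group's range than Dixon's test allows for 4 samples: Aldh1a3 at 7.578 TPM in mouse 3, Cldn8 at 72.02 TPM in mouse 1 and Ccnb1 at 20.64 TPM in mouse 3. Chance gives about 1 such case in 20 groups, and 40 genes were looked at. For Aldh1a3 and Cldn8 the high mouse lay on the side of the day 3 values, which were all above it, as the naming rule required.

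The day 3 response differed between rectum and anus in 68 genes by limma's interaction term, and in 8 with the mouse as a block. Among the genes named for that difference, the log2 change was more negative in rectum by -2.9727 for Kyat1, -2.8649 for Birc5, -2.8635 for Clca4a, -2.582 for Cdc20 and -2.5527 for Cdca3. It was more positive in rectum by 2.0674 for Ttc36, 1.9792 for Aldh1a3, and 1.9626 for Plcd3. Ttc36 had a log2 change of 0.0511 in rectum and of -2.0164 in anus, so that its difference shows no rectal rise. Cyp2a5 and Chac1, with differences of 1.7951 and 1.3809, were under 1 TPM in rectum on both days and entered the test through their anal level, so that these values show no rectal rise. Only Kyat1, Ttc36 and Plcd3 of these 10 passed with the block, and only Kyat1 passed in every fit that left out 1 mouse. The anal section holds squamous as well as glandular epithelium, and the part of tissue makeup in these differences was not tested.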

How the results depend on the processing

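The 818 calls in rectum became 253 when all 19 rectal samples shared the fit, of which 250 were among the 818, and 263 when at least a 2-fold change was also required. Under the other settings run (pseudocounts of 0.1 and 5, no filter, a filter of 5 TPM, TMM factors, mitochondrial genes left out, no trend) the count was 591 to 885. Without 1 mouse it was 417 to 1282. Of the 40 named rises and falls, all kept their call under TMM factors, both pseudocounts, no mitochondrial genes and no trend, 34 without a filter and 29 with all rectal samples. Between rectum and mid-colon the 0 calls became 2 with a pseudocount of 0.1, 3 with the mouse as a block and 2 with the block and TMM factors, a setting chosen after seeing the data, and ranged from 0 to 10 without 1 mouse. Between rectum and anus the 68 calls became 8 with the block and 20 with the block and TMM factors, ranged from 51 to 84 under the other settings and from 7 to 156 without 1 mouse. No named gene changed sign under any setting run. The causes were not tested. The number of mice, and TPM without depth, limit what small changes and low genes can show.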

Other observations

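Families outside the lists were picked after their values were seen and are given as a description, with limma's adjusted p over all tested genes. Over all tested genes 1.5% were higher and 5.13% lower, and since the choice used these values the counts of the families support nothing. Of the gasdermin C family, whose proteins can form membrane pores, 5 of 6 tested members were higher (median log2 change 0.81). The 5 include Gsdmcl-ps, named as a pseudogene (1.98 and 7.37 TPM, adjusted p 0.00424). The member not called was Gsdmc (2.78 and 5.40 TPM, adjusted p 0.0616). Gsdmc4 was at 829.6 ± 54.5 TPM at day 0 and 1555 ± 133 TPM at day 3 (adjusted p 0.000612), Gsdmc2 at 258 ± 15.2 and 418.5 ± 26.4 TPM, and Gsdmcl2, which the naming rule also picked, at 64.2 ± 13.8 and 139 ± 16.9 TPM. Gsdmc3 (136 ± 17.4 and 187.5 ± 7.38 TPM, adjusted p 0.0337) kept its call in 3 of 7 fits that left out 1 mouse each. The members are close copies, so that the split between members is uncertain. Of the immunoproteasome and peptide transport genes, Psmb8 (26.9 ± 3.72 and 57.9 ± 9.21 TPM, adjusted p 0.00263) and Psme1 (162.5 ± 12.1 and 207 ± 4.31 TPM, adjusted p 0.036) were higher of 7 tested, Psme1 in 2 of 7 fits that left out 1 mouse each, and metallothionein 1 (Mt1) was at 974 ± 186 and 1775 ± 148 TPM (adjusted p 0.00577), while Mt2 (530 ± 94.7 and 870 ± 328 TPM, adjusted p 0.187) did not pass.

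Lower families were led by the small proline-rich 2 genes, cornified envelope proteins that the colon surface also makes. All 4 tested members were lower (median -0.82). Sprr2a2 alone was at 36270 ± 2821 TPM at day 0 and 21030 ± 3619 TPM at day 3 (adjusted p 0.00539), and its copies Sprr2a1 (2713 and 1487 TPM) and Sprr2a3 (1981 and 1102 TPM) share most of its sequence. Alpha-class glutathione transferases were lower in 3 of 4, with Gsta1 at 98.7 ± 2.96 and 40.7 ± 2.64 TPM (adjusted p 0.000145) and Gsta3 at 30.1 ± 5.16 and 6.83 ± 2.02 TPM (adjusted p 0.0005), whereas Gsta4 was at 61.7 and 83.3 TPM (adjusted p 0.147). Both tested stearoyl-CoA desaturases were lower, Scd1 (9.97 ± 1.10 and 4.76 ± 0.558 TPM) and Scd2 (168 ± 41.3 and 85.9 ± 5.82 TPM, called in 6 of 7 such fits).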
